A study of Phyllostachys edulis with 2 samples.

Results

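Marker genes of root ground tissue in moso bamboo (Phyllostachys edulis) are followed here cell by cell: PH02Gene05035, PH02Gene28983, PH02Gene45651, PH02Gene04869, PH02Gene29708, PH02Gene15920 and PH02Gene36478. They are 7 of the 50936 genes in the deposited matrices and were taken by their identifiers, with no use of their level. The study picked them as markers on these same libraries, so a pattern that they share is no independent evidence that they mark ground tissue. The cells were protoplasts from basal root tips of about 2 cm, taken from plants 6 to 8 weeks old and digested with cell wall enzymes for 3 h. There was 1 condition and no control group, with 2 libraries described as biological replicates. Each library was made with a droplet method that tags the 3′ end of each captured RNA with a unique molecular identifier (UMI), so a level is a count of UMIs.

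Replicate 1 held 7668 cell barcodes and 36419750 UMIs, and replicate 2 held 7656 barcodes and 42126823 UMIs. Cells with more than 500 detected genes were kept, which left 7653 and 7651 cells with medians of 3130 and 3565 UMIs. The kept cells ran from 567 to 29912 UMIs in replicate 1 and from 590 to 69583 in replicate 2, and few lay in the middle. Cells under 2500 UMIs, called shallow here, numbered 3516 and 3397 with medians of 1041 and 1126 UMIs. Cells of at least 4000 UMIs, called deep, numbered 3423 and 3670 with medians of 7959 and 8776 UMIs. Between them lay 714 and 584 cells. Barcodes shared by the libraries numbered 15, and doublets were neither called nor removed.

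Ground tissue lies between the epidermis and the vascular cylinder of a root and forms the cortex and the endodermis, in grasses often with an exodermis under the epidermis. In Arabidopsis its layers arise when stem cell daughters divide under the transcription factors SHORT-ROOT and SCARECROW, and the endodermis later forms the Casparian strip, which controls what passes into the vessels. The descriptions at hand name no pathway common to the 7 genes. PH02Gene45651 falls in the KEGG group of subfamily G ABC transporters, which move compounds across membranes at the cost of ATP. PH02Gene04869 is described as endoglucanase 7, of an enzyme family that cuts or remodels cellulose in the cell wall. PH02Gene05035 is described as a probable E3 ubiquitin ligase RZFP34, a RING-finger protein that in Arabidopsis and rice tags proteins with ubiquitin. PH02Gene28983 is described as the proteolytic subunit of the Clp protease of the chloroplast, which degrades proteins inside plastids. PH02Gene29708 is described as LEC14B, a protein with WD40 repeats. PH02Gene15920 carries only the term carbohydrate binding, and PH02Gene36478 has no description.

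In situ hybridization probes were listed for 5 of the 7 genes, each with its sense strand, a stretch of the gene itself. These stretches are shown because they name the part of each RNA that was looked for in root sections. The probe was the reverse complement of the stretch in all 5 cases, and an ATG at the first base, where there is one, is in capitals.
PH02Gene45651: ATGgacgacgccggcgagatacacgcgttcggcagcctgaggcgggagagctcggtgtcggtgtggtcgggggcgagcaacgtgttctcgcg
PH02Gene04869: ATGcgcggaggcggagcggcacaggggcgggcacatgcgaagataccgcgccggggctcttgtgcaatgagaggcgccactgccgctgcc
PH02Gene29708: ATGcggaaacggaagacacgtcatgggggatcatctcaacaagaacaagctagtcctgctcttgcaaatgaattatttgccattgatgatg
PH02Gene15920: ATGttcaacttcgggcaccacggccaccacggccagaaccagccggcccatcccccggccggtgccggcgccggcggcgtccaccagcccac
PH02Gene36478: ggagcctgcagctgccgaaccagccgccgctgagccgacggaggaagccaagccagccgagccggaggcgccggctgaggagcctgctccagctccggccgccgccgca
The stretches of PH02Gene15920 and PH02Gene36478 are the richest in G and C, at 75.0% and 76.1%, and that of PH02Gene29708 the poorest, at 44.0%. Those of PH02Gene45651 and PH02Gene04869 lie between, at 68.5% and 71.1%. No sequence was at hand for PH02Gene05035 and PH02Gene28983.

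Together the 7 genes gave 325390 UMIs, 0.414% of all UMIs in kept cells. They differed widely in abundance. PH02Gene15920 stood at 2174 and 2159 counts in every 1000000 UMIs (CPM) in replicates 1 and 2, and was the 32nd most counted gene. PH02Gene05035 followed with 627 and 610 CPM, then PH02Gene45651 with 464 and 423, and PH02Gene28983 with 437 and 351. PH02Gene29708 stood at 273 and 257 CPM, PH02Gene04869 at 156 and 147 and PH02Gene36478 at 109 and 113. The ranges of PH02Gene45651 and PH02Gene28983 over the 2 libraries overlapped, although PH02Gene45651 was the higher within each library. No test was run on this order. No other neighbours overlapped. As 3′ tags are counted once per molecule, these levels are not divided by gene length.

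The first comparison asked whether the marker genes are higher in shallow or in deep cells, relative to other genes. UMIs were summed over the cells of each depth class in each library and tested with edgeR's quasi-likelihood test over 21350 genes. Sums were scaled by TMM, which sets them level over the bulk of genes (factors 1.18 and 1.16 for shallow, 0.886 and 0.875 for deep sums). The fitted folds toward shallow cells are therefore smaller than those of the CPM, which use total UMIs alone. Of the 7 genes, 6 were called higher in shallow cells and none lower, against a background of 37.7% of all genes called higher and 32.4% called lower (8048 and 6918 genes, 70.1% in all). The median log2 fold change of the 7 was 1.35, beside 0.09 over all genes tested. As the study chose these genes on these same libraries, neither the count nor the folds are independent of that choice. When sums were scaled by total UMIs alone, the background was 11410 genes higher and 3788 lower, and the median of all genes rose to 0.50.

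The transporter and the cell wall enzyme were both higher in shallow cells. PH02Gene45651, the ABC transporter, stood at 1795 and 1738 CPM in shallow cells of replicates 1 and 2, at 506 and 653 in cells between the classes, and at 279 and 259 in deep cells. The shallow and deep values did not overlap, and the log2 fold change was 2.31 (SE 0.0883, adjusted p = 1.63e-18). PH02Gene04869, the endoglucanase, had 476 and 446 CPM in shallow cells and 113 and 111 in deep cells. Its log2 fold change was 1.64 (SE 0.0822, adjusted p = 2.07e-16), with 145 and 176 CPM between. Replicates lay close together for both genes in shallow and in deep cells, and less so in the cells between.

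PH02Gene28983, the Clp protease subunit, had 1562 and 1494 CPM in shallow cells, 426 and 428 between, and 284 and 215 in deep cells. This gene was second in fold only to PH02Gene45651, with a log2 fold change of 2.21 (SE 0.0938, adjusted p = 9.97e-18). Of all genes tested, 2.16% had a larger fold toward shallow cells than PH02Gene45651 and 2.67% a larger one than PH02Gene28983. PH02Gene05035, the ubiquitin ligase, fell from 1410 and 1671 CPM in shallow cells to 516 and 480 in deep cells, a log2 fold change of 1.23 (SE 0.0856, adjusted p = 2.17e-13). PH02Gene29708, the LEC14B gene, fell from 689 and 713 CPM to 215 and 200, a log2 fold change of 1.35 (SE 0.0819, adjusted p = 1.03e-14). Folds of this size were less rare: 14.6% and 12.2% of genes exceeded them.

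PH02Gene15920 and PH02Gene36478 stood apart from the other 5. PH02Gene15920 had 3115 and 2787 CPM in shallow cells, 2988 and 3033 between, and 1982 and 2040 in deep cells. Although the shallow and deep values did not overlap, the fitted log2 fold change was 0.15 (SE 0.0769, adjusted p = 0.0808), near the median of all genes. It passed the threshold at 0.56 when sums were scaled by total UMIs alone (adjusted p = 1.22e-08) and was -0.02 when the middle class was left out of the fit. It was 0.03 without replicate 1 and 0.21 without replicate 2, both given with no test. PH02Gene36478 had 220 and 165 CPM in shallow cells, 186 and 212 between, and 88.4 and 101 in deep cells. Its log2 fold change was 0.62 (SE 0.101, adjusted p = 3.54e-06). That value rested unevenly on the libraries, at 0.88 without replicate 2 and 0.28 without replicate 1.

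**Figure D1:**
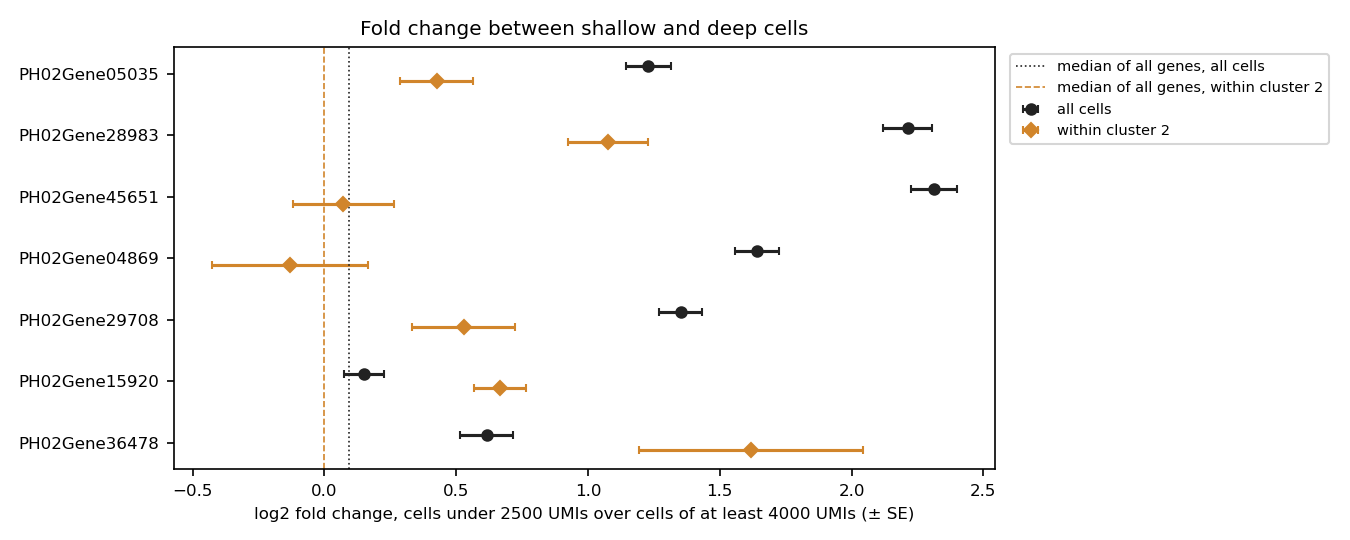
Log2 fold change of each gene between cells under 2500 UMIs and cells of at least 4000 UMIs; circles are the fit on all cells, diamonds the fit within cluster 2, bars ± 1 SE, and vertical lines the median of all genes in each fit. PH02Gene45651 and PH02Gene28983 lie farthest to the right over all cells (2.31 and 2.21), while within the cluster PH02Gene45651 sits at 0.07.

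A larger share of the RNA was not a larger number of molecules. PH02Gene45651 gave 2.10 UMIs per shallow cell and 2.44 per deep cell in replicate 1, and 2.13 and 2.55 in replicate 2. For PH02Gene28983 the means were 1.82 and 2.49, then 1.83 and 2.11. Deep cells thus held 1.15 to 1.37 times as many molecules of these genes, although they held 7.65 and 7.79 times as many UMIs at the median. PH02Gene04869 rose from 0.556 to 0.987 UMIs per cell in replicate 1 and from 0.547 to 1.09 in replicate 2. For PH02Gene05035 and PH02Gene29708 deep cells held between 2.25 and 2.75 times the shallow mean over both libraries. PH02Gene15920 rose from 3.64 to 17.4 and from 3.42 to 20.0 UMIs per cell, and PH02Gene36478 from 0.257 to 0.775 and from 0.202 to 0.995. In no gene and no library was the mean per cell higher in shallow cells. A class sum cannot by itself tell more cells of a type from more RNA per cell.

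To compare shares of cells at 1 depth, each cell was thinned at random to 500 UMIs. PH02Gene28983 was then detected in 49.7% (95% Wilson interval 48.1 to 51.4) and 49.3% of shallow cells and in 14.1% (12.9 to 15.3) and 11.6% of deep cells. These intervals cover counting error only. PH02Gene45651 was found in 41.5% and 39.0% of shallow cells against 12.3% and 12.2% of deep ones, and PH02Gene05035 in 42.5% and 44.7% against 22.8% and 20.4%. The same order held for the less abundant genes at every value. PH02Gene29708 was found in 25.8% and 26.6% of shallow cells and 10.2% and 10.4% of deep cells, and PH02Gene04869 in 18.6% and 18.0% against 5.20% and 5.75%. PH02Gene15920 was detected in 72.2% and 70.3% of shallow cells, yet also in 47.1% and 50.1% of deep ones. PH02Gene36478 was rare in both, at 8.62% and 7.65% against 3.53% and 4.17%. Without thinning, 94.7% and 95.6% of all kept cells held a UMI of PH02Gene15920, and 19.6% and 22.5% one of PH02Gene36478. Free RNA in the droplets was not measured. The share at equal depth in the cluster where each gene had its lowest CPM is given with the clusters as a reference.

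Finer depth bins showed 3 shapes. PH02Gene28983 fell at every step, from 2136 CPM in cells under 1000 UMIs through 1608, 988, 426 and 310 to 271 CPM in cells of 8000 or more in replicate 1, and from 2023 to 197 in replicate 2. PH02Gene45651, by contrast, was highest inside the shallow range: it went from 1492 CPM under 1000 UMIs to 2007 in the bin from 1000 UMIs and 1858 in the bin from 1500 UMIs in replicate 1. In replicate 2 these were 1260, 1642 and 2139 CPM, so the peak bin differed between libraries. PH02Gene05035 and PH02Gene29708 peaked in the bin from 1000 UMIs in both libraries, at 1662 and 1825 CPM and at 765 and 822 CPM. All of these dropped between the last shallow bin and the bin from 2500 UMIs. At that step PH02Gene15920 went from 3240 to 2988 CPM in replicate 1 but from 2746 to 3033 in replicate 2, and PH02Gene36478 from 240 to 186 and from 177 to 212. The libraries thus moved in opposite directions there, and both genes fell in both libraries from 4000 UMIs on.

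**Figure D2:**
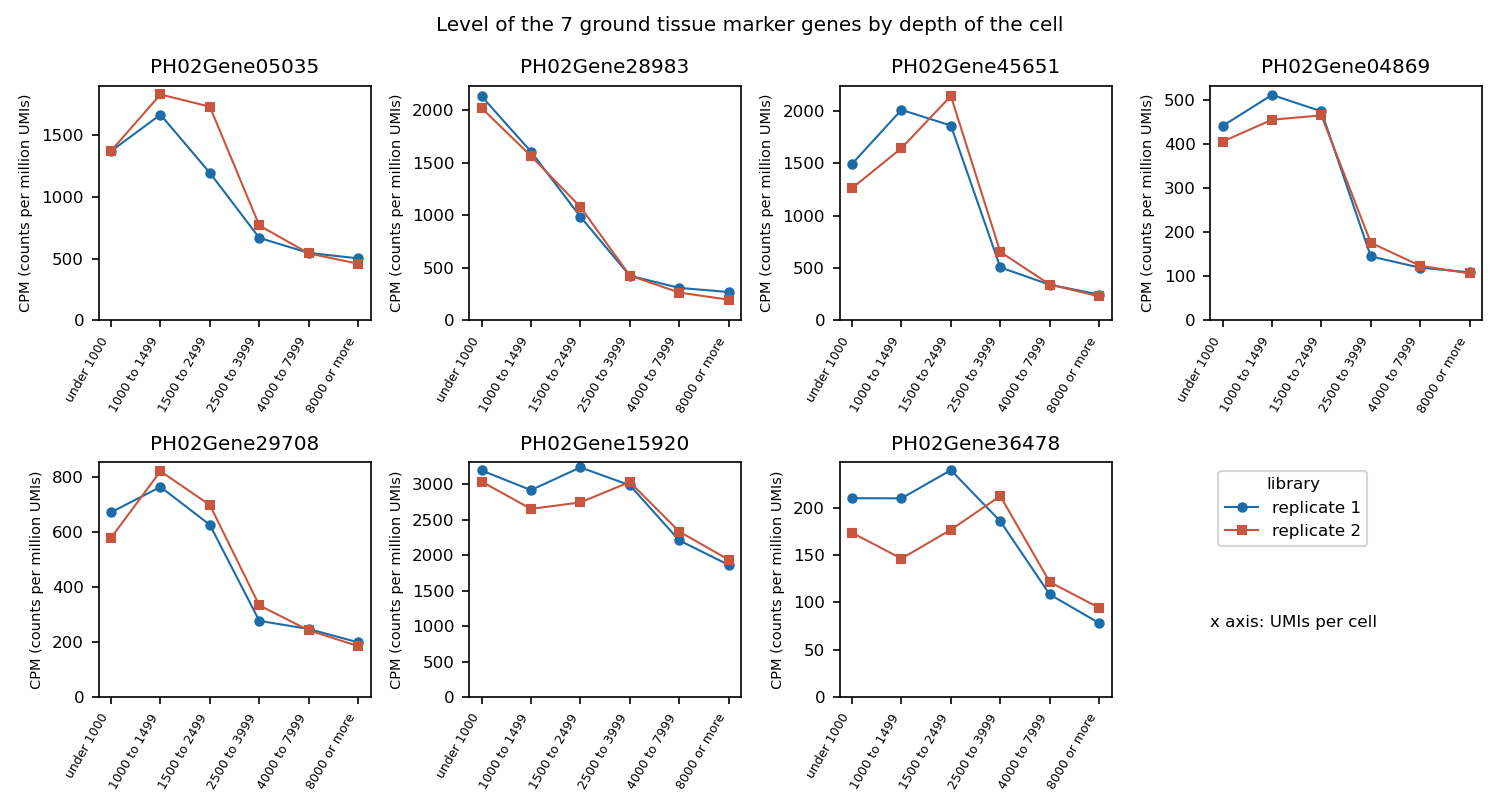
CPM of each gene (vertical axis, from 0) in 6 bins of UMIs per cell (horizontal axis), with 1 line per library. PH02Gene28983 falls from bin to bin, and the other genes of the upper row and PH02Gene29708 drop at 2500 UMIs in both libraries. At that step PH02Gene15920 and PH02Gene36478 drop in replicate 1 and rise in replicate 2. Both drop in both libraries from 4000 UMIs on, and also from the first bin to the second.

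Where in the cell population the genes were high was read from 14 clusters, rebuilt without the 51 listed genes, members included, and called by number because no annotation of cells was used. The 7 genes did not share 1 cluster. PH02Gene05035 reached 2140 ± 250 CPM (SD, n = 2), PH02Gene28983 1856 ± 168 and PH02Gene29708 902 ± 25.8 in cluster 0, a cluster of 3526 cells with a median of 973 UMIs. At equal depth 52.1%, 54.6% and 31.8% of its cells held a UMI of them. The clusters of lowest CPM had 10.4% for PH02Gene05035 (cluster 13, median 2180 UMIs), 9.68% for PH02Gene28983 (cluster 8, median 9012) and 4.74% for PH02Gene29708 (cluster 11, median 1561.5).

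PH02Gene45651 and PH02Gene04869 instead were highest in cluster 1, of 2555 cells with a median of 1178 UMIs. Their means there were 2898 ± 17.9 CPM and 757 ± 7.80 CPM (SD, n = 2). At equal depth 55.1% and 29.0% of its cells held a UMI of these genes, against 3.12% in cluster 8 and 3.48% in cluster 4 (median 9481 UMIs). These are the gene in the ABC transporter group and the endoglucanase. PH02Gene15920 and PH02Gene36478 were highest in cluster 11, of 366 cells, at 12192 ± 475 CPM and 1798 ± 232 CPM (SD, n = 2). At equal depth 95.6% and 38.6% of its cells held a UMI of them. For both, cluster 8 was the lowest in CPM, with 645 and 18.9 CPM, and 26.5% and 1.48% of its cells held a UMI at equal depth. After thinning PH02Gene36478 was found in 0 of 509 cells of cluster 9 (median 7559 UMIs), which allows a share of up to 0.589%. Before thinning it was present there, with 41 UMIs in each library (21.7 and 19.5 CPM). PH02Gene15920 was thus detected often even where it was lowest. Cluster 6 also held much of both genes, at 6224 and 516 CPM. PH02Gene15920 came close to that in cluster 12 (6044 CPM), where PH02Gene36478 did not (94 CPM). Cluster 6 is a deep cluster with a median of 7907 UMIs, and it is where 2 of the 8 root cap markers, PH02Gene00521 and PH02Gene46694, were highest. The other 6 peaked elsewhere, in clusters 5, 10 and 13. As clusters follow from the cells' expression, these levels are a description and carry no test.

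**Figure D3:**
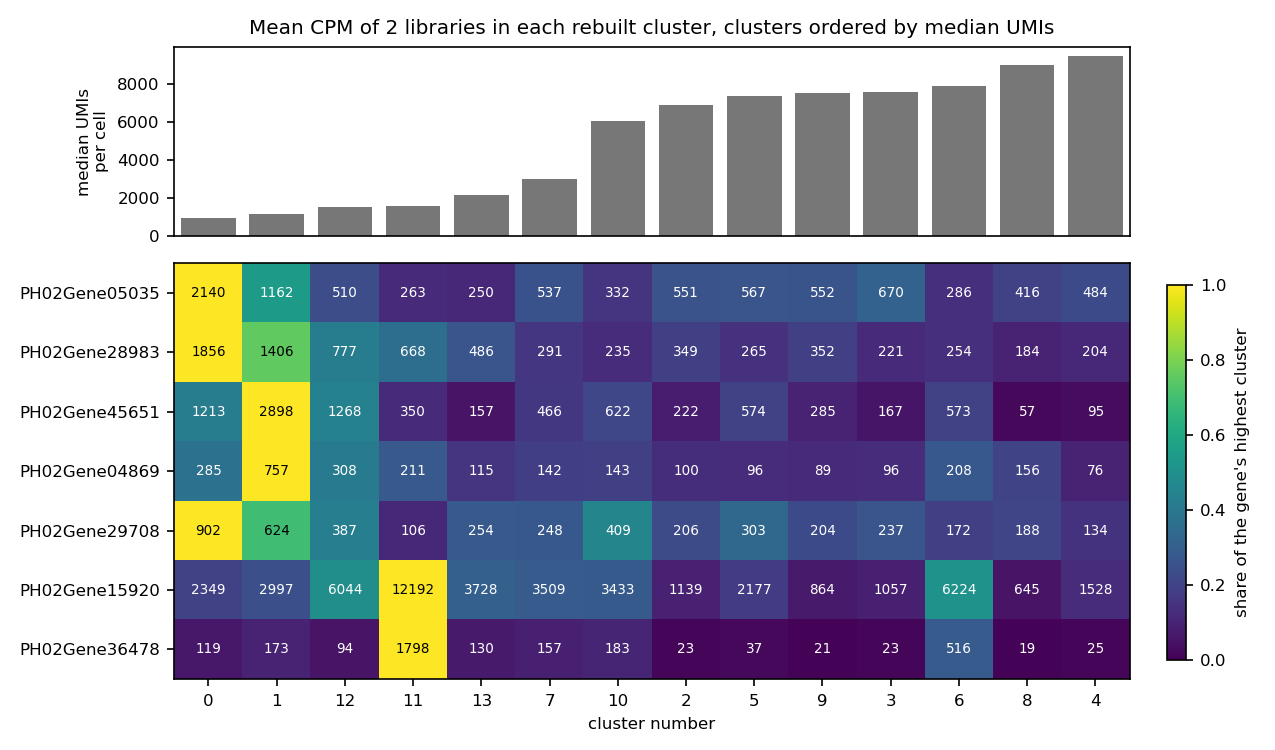
Mean CPM of both libraries for each gene in the 14 rebuilt clusters (printed in the cells; colour is the share of the gene's own highest cluster), with clusters ordered by median UMIs per cell (bars, from 0). Cluster 0 is highest for PH02Gene05035, PH02Gene28983 and PH02Gene29708, cluster 1 for PH02Gene45651 and PH02Gene04869, and cluster 11 for PH02Gene15920 and PH02Gene36478.

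Clusters 0 and 1 held 50.2% and 35.4% of the 6913 shallow cells, so depth and cluster moved together. When both were left out, an alternative chosen after seeing the data, all 7 genes were called higher in the shallow cells that remained, beside 17.5% of all genes. The log2 fold changes were then 0.26 for PH02Gene05035 (adjusted p = 0.0471), 0.55 for PH02Gene29708, 0.86 for PH02Gene04869, 1.21 for PH02Gene45651 and 1.49 for PH02Gene28983. PH02Gene15920 and PH02Gene36478 went the other way, up to 0.92 (adjusted p = 2.06e-09) and 1.80. The shallow cells that remained numbered 520 and 475 in replicates 1 and 2. Cluster 11, where these 2 genes were highest, held 261 of them, and cluster 7 held 298. Of the cells of cluster 11, 71.3% were shallow and 11.5% deep. The part of this make-up in the rise was not tested. Of 16059 genes tested, 2815 were called higher and 2581 lower.

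Within a cluster the fold between shallow and deep cells was smaller for 5 of the 7 genes than over all cells and larger for PH02Gene15920 and PH02Gene36478. Only cluster 2 had at least 50 cells of each class in each library, with 80 and 66 shallow and 807 and 774 deep cells. Among 8526 genes tested there, 0.551% were called higher in shallow cells and 0.95% lower (1.5% in all), and 3 of the 7 genes were called higher. PH02Gene28983 had 724 CPM in shallow and 373 CPM in deep cells of replicate 1, and 770 and 299 in replicate 2, a log2 fold change of 1.08 (SE 0.152, adjusted p = 0.000281). PH02Gene15920 had 1734 and 1084 CPM, then 1933 and 1102, a log2 fold change of 0.67 (SE 0.0991, adjusted p = 0.000428). Shallow values lay above deep values in both libraries for these genes. PH02Gene36478 had 41.8 and 21.4 CPM, then 103 and 21.2, a log2 fold change of 1.62 (SE 0.424, adjusted p = 0.0472). That call was lost with the library as a replicate block (adjusted p = 0.0688), and the value was 2.10 without replicate 1 and 0.82 without replicate 2. All cells of cluster 2 together held 165 and 180 UMIs of PH02Gene36478 in replicates 1 and 2, and its shallow values rest on few of these.

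The other 4 genes did not pass the threshold in cluster 2. PH02Gene05035 was at 0.43 (SE 0.139, adjusted p = 0.143) and PH02Gene29708 at 0.53 (SE 0.194, adjusted p = 0.204) on the log2 scale. PH02Gene45651, with the highest fold over all cells, was at 0.07 (SE 0.191, adjusted p = 0.924), and PH02Gene04869 at -0.13 (SE 0.297, adjusted p = 0.911). The number of clusters that could enter this fit changed with how they were built, from 1 to 4. Over 3 other clusterings PH02Gene28983, PH02Gene15920 and PH02Gene36478 were called each time. PH02Gene05035 was called in 2 of them and PH02Gene04869 in 1 (0.43, adjusted p = 0.0143). PH02Gene45651 and PH02Gene29708 were called in none.

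The second comparison asked whether the 7 genes are detected in the same cells. Cells holding both genes of a pair were counted after thinning to 500 UMIs and set against the number that independent detection would give. Of 21 pairs, 18 lay above 1 in both libraries, 2 lay below 1 in both, and the median ratio was 1.16. With each member, 1795 to 2115 of 4208 genes found in at least 2% of cells exceeded independent detection, by the mean over libraries. PH02Gene45651 with PH02Gene04869, the pair that shares cluster 1, had the highest ratio, 1.69: 384 cells held both where 229 would be found by independent detection in replicate 1, and 371 against 217 in replicate 2. PH02Gene45651 with PH02Gene29708 followed at 1.51, and PH02Gene15920 with PH02Gene36478 at 1.36 (389 against 280 cells, and 365 against 273). The pairs below 1 joined PH02Gene36478 with PH02Gene05035 (133 against 153 cells, and 132 against 145) and with PH02Gene29708 (76 against 82.3, and 69 against 82.4).

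Most of the excess went when the expected number was worked out inside the 3 depth classes and summed. The median ratio was then 0.99, with 7 pairs above 1 in both libraries and 8 below 1 in both. Inside the rebuilt clusters it was 0.98, with 6 pairs above. What was left above 1 inside depth classes was led by PH02Gene45651 with PH02Gene04869 at 1.31, PH02Gene15920 with PH02Gene36478 at 1.28, PH02Gene45651 with PH02Gene29708 at 1.22, and PH02Gene05035 with PH02Gene29708 at 1.17. PH02Gene36478 fell further below with PH02Gene29708, at 0.77, and with PH02Gene05035, at 0.81. PH02Gene28983 ranged from 0.96 to 1.02 with the other 6 genes. In these sparse counts a ratio near 1 says little, and no test was run on the ratios.

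**Figure D4:**
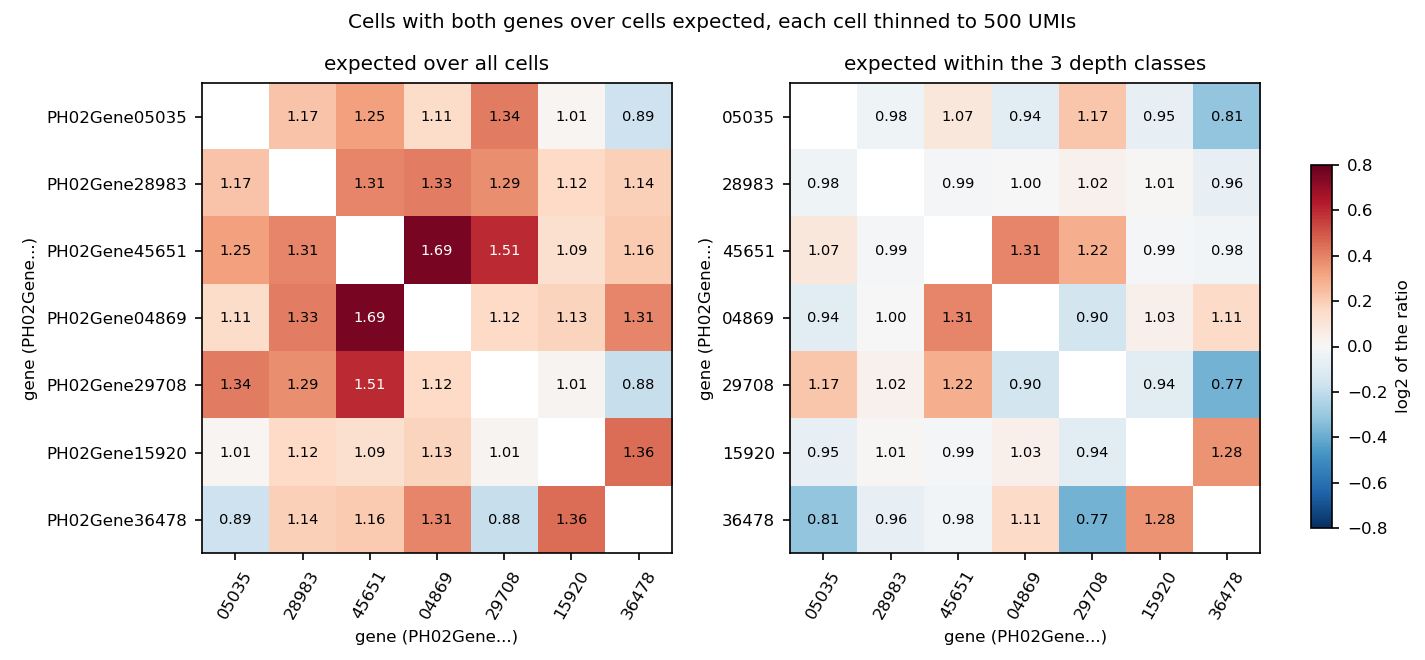
Ratio of cells with both genes to cells expected for each pair, mean of 2 libraries, with each cell thinned to 500 UMIs; colour is log2 of the ratio. The left panel, with the number expected over all cells, is mostly above 1 (median 1.16), and the right panel, with the number expected within the 3 depth classes, is spread around 1 (median 0.99).

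The genes most like each member in detection were ranked by the phi coefficient, a correlation of detection across cells thinned to 500 UMIs, over 4208 genes and both libraries. All values were low, so they describe an order and not a close bond. PH02Gene45651 was closest to PH02Gene48792 (0.208), PH02Gene31405, described as an OPR1 enzyme (0.177), and PH02Gene03241, an F-box protein (0.161). PH02Gene04869 was closest to PH02Gene45651 itself (0.146), and PH02Gene29708 likewise (0.139). PH02Gene05035 was closest to PH02Gene10363, described as a trehalase (0.120), and then to PH02Gene29708 (0.107). PH02Gene28983 was closest to PH02Gene27896, described as apocytochrome b (0.192). PH02Gene15920 was closest to PH02Gene44715 (0.200) and PH02Gene36478 to PH02Gene28800 (0.175). The water channel PH02Gene19725 was among the 3 closest genes of PH02Gene28983, PH02Gene15920 and PH02Gene36478, at 0.135, 0.196 and 0.115.

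Genes with an organelle description were measured beside the Clp protease gene. PH02Gene27896, apocytochrome b of the respiratory chain, had 551 and 551 CPM in shallow cells and 73.7 and 58.8 CPM in deep cells. The log2 fold change was 2.66 (adjusted p = 4.21e-19), and within cluster 2 it was 1.16 (adjusted p = 0.0105), where PH02Gene28983 was at 1.08. These are the only genes of the list with an organelle description. In plants a clpP gene lies in the plastid genome and the apocytochrome b gene in the mitochondrial genome. Whether these gene models are organelle or nuclear genes cannot be told from their identifiers. The part of RNA quality in the result for PH02Gene28983 was not tested.

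Relatives of PH02Gene04869 and PH02Gene45651 were set beside the 37.7% of all genes called higher in shallow cells. Of 4 endoglucanase genes, PH02Gene04869 included, 3 were called higher in shallow cells and none lower, with PH02Gene05255 at 1.74 and PH02Gene27402 at 1.29, while PH02Gene01094 stood at 0.13 on the log2 scale. Of 11 genes in its ABC transporter group, PH02Gene45651 included, 8 were called higher and none lower, with a median of 0.46 and PH02Gene20858 at 1.57. Within cluster 2 no gene of either list was called, and the medians were -0.17 for the endoglucanases and 0.21 for the ABC transporters.

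Genes known for ground tissue from other species were called in both directions, as were genes at large (37.7% higher and 32.4% lower). Counts this small are a description only. Of 5 orthologs of rice ground tissue genes, 1 was called higher in shallow cells (PH02Gene32823, 1.88) and 3 lower, with a median of -0.39. Among 4 tested regulators, PH02Gene21484, a SCARECROW gene, had 15.1 and 19.2 CPM in shallow and 5.80 and 6.71 CPM in deep cells, a log2 fold change of 1.05 (adjusted p = 4.19e-06). The heat shock factor gene PH02Gene07229 (HSFB4) was also called higher, at 0.44. PH02Gene13428 (MYB36), which in Arabidopsis drives Casparian strip formation, was called lower, at -2.08, as was PH02Gene11863, at -0.34. PH02Gene46454 was too low to be tested. Within cluster 2 none of the 5 orthologs and 2 regulators tested was called.

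Markers given for other tissues were mostly called lower in shallow cells, beside 32.4% of all genes. As the study chose these markers too on these same libraries, their direction is not independent of that choice. Of the 8 root cap genes, 1 was called higher in shallow cells and 5 lower, with a median of -0.46. All 3 initial cell, 2 transition, 2 epidermis and 5 undefined-cluster genes were called lower. Within cluster 2 this was seen for 1 of 5 root cap and 1 of 2 transition genes tested. None of the 3 initial cell, 2 epidermis and 5 undefined-cluster genes was called there, and the median of the initial cell genes was 0.35. The summed level of the 7 genes was 9268 and 9014 CPM in shallow cells and 3478 and 3407 in deep cells, while that of the root cap list was 1756 and 1748 against 2113 and 2313. No root cap gene was at 0 in any class.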

How the data were processed

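The deposited matrices hold raw UMI counts per gene and cell, which the authors made with Cell Ranger 5.0.1 and STAR, per the labels' processing notes. The genes and lists were chosen with earlier results of these data known. Cells with more than 500 genes were kept, and mitochondrial reads were not filtered on, since identifiers name no such genes. The study's own filters left fewer cells than the 15304 kept here. Some cells that it discarded are therefore included, and they were not identified. Counts were summed per library and depth class (6 sums) and tested with edgeR 4.0.16 (TMM scaling, low-count filter, quasi-likelihood fit without a replicate block, Benjamini-Hochberg adjustment, threshold 0.05), with DESeq2 1.42.0 as an alternative. The sums of a library share its cells' source, and the spread behind the p-values is that between 2 libraries. The fit draws each gene's spread toward that of all genes tested, so a p-value does not rest on that gene's own spread alone. Clusters came from Seurat 5.3.0 (2000 variable genes without the listed ones, 20 exact principal components, resolution 0.8); the exact form was chosen after the data were seen, because the approximate one varied with the computing library. The script was tested on simulated data. Named genes are the 7 members, the listed genes and, for each member, the 3 genes of highest phi found in at least 2% of cells; some of these are not printed. The library as a block was included as an alternative because both depth classes come from each library, although same-library sums deviated together only weakly (correlations of -0.006, -0.036 and 0.063 over the 3 pairs of classes).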

Additional observations from a re-analysis of the deposited data

How the results depend on the processing

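Over 12 alternatives with a test, PH02Gene05035, PH02Gene28983, PH02Gene45651, PH02Gene04869, PH02Gene29708 and PH02Gene36478 stayed called higher in shallow cells, and PH02Gene15920 was called in 3: 0.56 with total UMIs, 0.25 with cells thinned to 500 UMIs and 0.92 without the 2 clusters of most shallow cells, against -0.021 without the middle class. Leaving out 1 library gave 2.25 to 2.32 for PH02Gene45651 and 1.58 to 1.64 for PH02Gene04869. Calls over all genes numbered 8549 (4528 higher, 4021 lower) with thinned cells, 5396 (2815 and 2581) without those 2 clusters, and 3788 lower with total UMIs.

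With the replicate block, calls over all genes were 8010 higher and 6910 lower, and within clusters 32 and 72; PH02Gene36478 within clusters was at 1.63 (adjusted p = 0.0688) and no other call on the 7 genes changed.

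Within clusters, calls were 2058 (741 and 1317) with 30 neighbours, 2140 (727 and 1413) with another seed, 1035 (365 and 670) at resolution 0.4, and 40 lower with total UMIs. PH02Gene05035 was 0.32 with another seed and 0.39 with 30 neighbours, PH02Gene04869 0.29 and 0.43, PH02Gene29708 -0.14 and -0.047, and PH02Gene45651 -0.089 at resolution 0.4. Without 1 library the ranges were 0.21 to 0.45 for PH02Gene05035, -0.036 to 0.022 for PH02Gene45651, -0.70 to 0.10 for PH02Gene04869, 0.43 to 0.47 for PH02Gene29708 and 0.54 to 0.64 for PH02Gene15920. The seed, the neighbours and the 2 clusters left out were chosen after seeing the data; the causes were not tested.

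The median co-detection ratio was 1.05 thinned to 2000 UMIs, 0.994 within depth classes (7 pairs above 1), 0.984 within clusters (6), 0.980 in shallow cells alone (6), 1.03 in deep cells alone (8) and 1.14 to 1.20 with 1 library. Some pairs above 1 in both libraries went below 1 in both under an alternative, while others crossed in the mean or in 1 library only and are not listed. Within depth classes the former were PH02Gene04869 with PH02Gene29708 (0.904), and PH02Gene05035 with PH02Gene04869 (0.941), PH02Gene15920 (0.954) and PH02Gene28983 (0.978), and PH02Gene28983 with PH02Gene36478 (0.957). Within clusters these were PH02Gene05035 with PH02Gene15920 (0.975) and PH02Gene28983 (0.961), PH02Gene28983 with PH02Gene36478 (0.968) and PH02Gene45651 (0.984), and PH02Gene45651 with PH02Gene15920 (0.964) and PH02Gene36478 (0.946). In shallow cells alone they were PH02Gene04869 with PH02Gene29708 (0.884), PH02Gene05035 with PH02Gene04869 (0.944), PH02Gene15920 (0.945) and PH02Gene28983 (0.978), and PH02Gene45651 with PH02Gene28983 (0.980), PH02Gene15920 (0.955) and PH02Gene36478 (0.929). In deep cells alone they were PH02Gene05035 with PH02Gene15920 (0.964) and PH02Gene28983 with PH02Gene36478 (0.922), and at 2000 UMIs PH02Gene15920 with PH02Gene05035 (0.992) and PH02Gene28983 (0.998). Depth limits the rare genes most, since a thinned cell holds 500 UMIs.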

Other observations

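Each of the 7 genes was also paired with 20 markers of other tissues. Of these 140 pairs, 22 were found together more often than independent detection would give in both libraries. Another 97 were found together less often in both, and the median ratio of all pairs was 0.886. As a background, 1795 to 2115 of 4208 genes exceeded independent detection with each of the 7 genes, by the mean over libraries. With the number expected within depth classes, 33 pairs lay above 1 in both libraries and 81 below, with a median of 0.939. The tissues differed. Set against cells with a UMI of any root cap marker, 4 of the 7 genes lay above 1 in both libraries. With each other tissue's list 0 did. Within depth classes 4 lay above and 3 below for the root cap list. For the other lists 0 or 1 lay above and 4 to 6 below. PH02Gene15920 was above 1 with each root cap marker in both libraries, as with PH02Gene00521 (1.23 in each). No test was run on these ratios, and the pairs share cells.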
